A study of Mus musculus with 59 samples.

Results

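The 10 genes described here encode the enzymes of de novo lipogenesis and the factors that control them: Acly, Acaca, Acacb, Fasn, Scd1, Scd2, Me1, Thrsp, Mlxipl and Srebf1. They were chosen by name, and their rows were read from 3 tables of RNA-seq counts that list 55327 named genes of mouse brown adipose tissue (BAT). All the mice were male C57BL/6J mice aged 8 to 12 weeks. In the thyroid hormone (TH) experiment, wild-type (WT) mice received propylthiouracil (PTU), which blocks TH synthesis, and were taken either without hormone (WT PTU, n = 4) or 3, 6, 12 and 24 h after a single injection of T3 and T4 (n = 4 each). BATKO mice in the same experiment received PTU alone (n = 5) or PTU with TH for 24 h (n = 5). In the temperature experiment, control (CTRL) mice were kept at 4 °C (n = 3) or 30 °C (n = 4) and BATKO mice at 4 °C (n = 4) or 30 °C (n = 5), with 24 h in the label of their table. In the diet experiment, a high-fat diet (HFD, n = 4) or chow (n = 4) was given to CTRL mice and HFD (n = 3) or chow (n = 2) to BATKO mice, with 3.5 days in the label of their table. The sources used here do not say which gene BATKO mice lack, so the targeted gene could not be checked.

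De novo lipogenesis turns the carbon of glucose into fatty acids: citrate leaves the mitochondria, is split into acetyl-CoA, is carboxylated to malonyl-CoA and is then extended to palmitate with reducing power from NADPH. In BAT this synthesis runs beside the burning of fatty acids for heat, and both are known to be active in the cold. Transcription of the pathway is driven by ChREBP, which senses glucose metabolites and is encoded by Mlxipl, and by SREBP1, which responds to insulin and is encoded by Srebf1. TH acts through receptors that bind DNA next to the same genes in liver, where Thrsp, also called Spot 14, is a classical TH-responsive gene.

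Promoter sequences of 3 genes are shown because these genes open the results: Mlxipl rose after TH, Acly fell, and Fasn encodes the synthase of the pathway. The RefSeq table for GRCm38.p6 held an upstream window of 8 of the 10 genes. Each line gives the 250 bases before the start site, 5′ to 3′ on the strand of the gene, at chr5:135089640-135089889 on the plus strand for Mlxipl, chr11:100528001-100528250 on the minus strand for Acly and chr11:120824548-120824797 on the minus strand for Fasn. Capitals mark matches, on either strand, to the E-box CACGTG, the nuclear receptor half-site AGGTCA, the CCAAT box CCAAT and the GC box GGGCGG.
Mlxipl: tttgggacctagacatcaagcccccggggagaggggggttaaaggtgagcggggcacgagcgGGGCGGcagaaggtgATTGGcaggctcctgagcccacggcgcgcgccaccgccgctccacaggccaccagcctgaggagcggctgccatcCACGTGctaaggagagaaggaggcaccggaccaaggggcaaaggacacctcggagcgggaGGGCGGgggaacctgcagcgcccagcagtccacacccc
Acly: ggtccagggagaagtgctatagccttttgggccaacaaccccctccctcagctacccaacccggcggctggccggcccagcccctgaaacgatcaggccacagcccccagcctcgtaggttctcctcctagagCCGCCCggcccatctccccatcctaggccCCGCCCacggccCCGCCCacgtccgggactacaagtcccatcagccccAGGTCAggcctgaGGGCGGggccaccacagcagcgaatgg
Fasn: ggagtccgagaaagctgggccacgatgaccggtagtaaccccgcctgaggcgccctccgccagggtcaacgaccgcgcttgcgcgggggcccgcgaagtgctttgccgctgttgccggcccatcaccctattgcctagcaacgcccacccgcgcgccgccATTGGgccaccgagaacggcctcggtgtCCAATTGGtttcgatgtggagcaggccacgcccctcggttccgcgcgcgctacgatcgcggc
The Mlxipl window shown held 1 E-box, 98 to 93 bases before the start site, and 6.02% of 32851 RefSeq promoter windows of this length held these letters. Another Mlxipl window, at chr5:135106641-135106890 and not shown, held 0 matches to any of the marked letters. The Acly window held 1 half-site, 40 to 35 bases before the start, letters found in 14.0% of windows, and 4 GC boxes, found in 32.7%. The Fasn window held 3 CCAAT boxes, 2 of which overlap, and 33.8% of windows held at least 1. A direct repeat of the half-site letters with a spacer of 4 bases (DR4), the arrangement that TH receptors are known to prefer, was not found in the windows of the 8 genes and was found in 0.0152% of all windows.

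In the GENCODE annotation of GRCm38, the 10 genes are protein-coding. On the plus strand are Acaca at chr11:84129672-84401651, Acacb at chr5:114146535-114250761, Mlxipl at chr5:135089890-135138382 and Scd2 at chr19:44293674-44306864. On the minus strand are Acly at chr11:100476353-100528000, Fasn at chr11:120805846-120824547, Scd1 at chr19:44394455-44407879, Me1 at chr9:86581371-86695953, Thrsp at chr7:97412938-97417730 and Srebf1 at chr11:60199089-60222581. Scd1 and Scd2 lie on the same chromosome, 19.

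The libraries held between 7805938 and 18073627 counts per mouse, of which 39.3% to 55.7% came from mitochondrially encoded genes, and the 10 genes passed the filter on low counts in every comparison. The smallest count of any of them was 112, for Acaca in a BATKO mouse on HFD. Markers of adipocytes and brown adipocytes were detected in every group, whereas the summed level of 4 T and B cell markers stayed at or below 2.93 CPM (counts scaled to the size of the library). Skeletal muscle markers, 6 genes, varied between mice of the same group and summed to over 1000 CPM in 11 of the 59 mice, so each count below was also taken without those mice. The mice labelled WT and BATKO in the TH experiment differed in 70.3% of all genes at PTU, and whether this comes from genotype or from separate handling cannot be told apart. Fewer cells of a type and less RNA per cell cannot be told apart in bulk tissue either.

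The most abundant of the 10 genes per length of exon was Scd1, encoding the desaturase that makes oleate, at 4490 ± 1641 normalised CPM per kb (SD, n = 4) in WT PTU mice. Thrsp followed at 1260 ± 238 per kb, then Fasn at 375 ± 95.0 and Acly, the citrate-splitting enzyme, at 357 ± 63.4 per kb. The mice overlapped between Fasn and Acly and between Srebf1 and Mlxipl, and between no other neighbours in this order. Acaca, encoding the cytosolic acetyl-CoA carboxylase, was lowest per length, at 7.37 ± 1.27 per kb in WT PTU mice, 6.24 ± 1.94 in CTRL mice at 30 °C (n = 4) and 2.80 ± 0.683 in CTRL mice on chow (n = 4). Lengths count every annotated exon of a gene, and experiments were normalised separately.

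**Figure D1:**
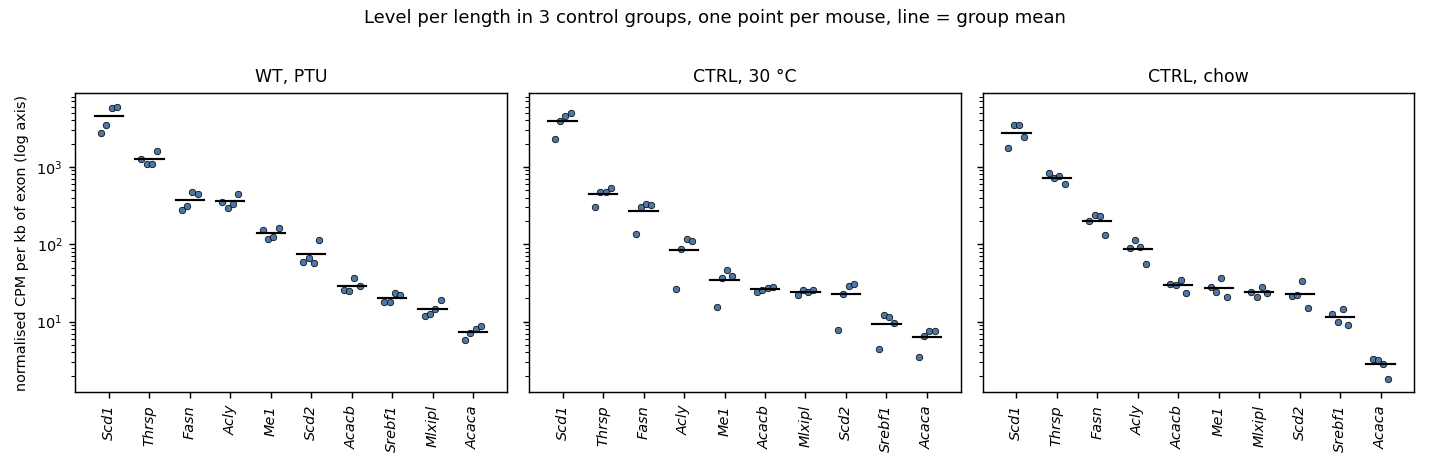
Level of each of the 10 genes in normalised CPM per kb of exon (y axis, logarithmic) in 3 control groups, with the genes ordered by mean from left to right, 1 point per mouse and the group mean as a line. Scd1 is highest and Acaca lowest in each of the 3 groups, at 4490 and 7.37 per kb in WT PTU mice.

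After TH, the ChREBP gene Mlxipl rose in WT mice and was the member with the largest change at 24 h. It was at 65.9, 68.8, 80.2 and 104 normalised CPM in WT PTU mice and at 222, 217, 152 and 169 CPM 24 h after TH. The 24 h mice were all above the PTU mice, with a log2 fold change of 1.25 ± 0.19 (SE, adjusted p = 2.8e-05, edgeR's quasi-likelihood test). It had already passed the test at 12 h, by 0.83 ± 0.19 (adjusted p = 0.0021), and it passed narrowly at 3 h, by 0.59 ± 0.18 (adjusted p = 0.048). At 6 h the value was 0.45 ± 0.18 (adjusted p = 0.082). Leaving out each mouse in turn kept the call at 12 h and 24 h in 8 of 8 fits, but at 3 h in 1 of 8. A gene count does not separate transcripts that begin at different start sites of Mlxipl, and exons of Gm43500 on the other strand cover 4.24% of its exon length.

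Srebf1 moved the other way. It was at 101, 99.8, 132 and 123 CPM in WT PTU mice, at 76.6, 70.9, 65.6 and 47.1 CPM at 3 h, and at 75.0, 89.2, 47.2 and 75.4 CPM at 24 h. Every mouse at both times was below every PTU mouse, and Srebf1 fell by 0.83 ± 0.23 on the log2 scale at 3 h (adjusted p = 0.028) and by 0.67 ± 0.23 at 24 h (adjusted p = 0.032). Each of the calls was lost in 4 of 8 fits that left out a mouse. At 12 h the log2 fold change was -0.02 ± 0.23 (adjusted p = 0.97). A gene count does not separate the SREBP1 isoforms, and 109 bases of Srebf1 exons also belong to Rai1 on the other strand.

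Acly fell at 6 h and 12 h. Its levels in WT PTU mice were 1839, 1568, 1771 and 2354 CPM. They were 483, 1063, 517 and 649 CPM at 6 h and 842, 1374, 722 and 588 CPM at 12 h. The mice at 6 h and 12 h were all below the PTU mice, and Acly fell by 1.49 ± 0.29 on the log2 scale at 6 h (adjusted p = 9.4e-04) and by 1.09 ± 0.29 at 12 h (adjusted p = 0.0079), calls that held in 8 of 8 fits without 1 mouse. By 24 h its levels, 1632, 1818, 783 and 1292 CPM, overlapped those of PTU mice (-0.45 ± 0.29, adjusted p = 0.24). Me1, the malic enzyme that supplies NADPH, was at 587, 444, 470 and 629 CPM in WT PTU mice and at 285, 425, 231 and 218 CPM at 6 h, with no overlap, a fall by 0.89 ± 0.21 on the log2 scale (adjusted p = 0.0037). Against PTU it was not called at 12 h (-0.34 ± 0.21, adjusted p = 0.25) or at 24 h (0.45 ± 0.21, adjusted p = 0.098). Between 12 h and 24 h Me1 rose, from a mean of 420 ± 107 to 730 ± 167 CPM (SD, n = 4 each), by 0.79 ± 0.21 (adjusted p = 0.018), a call lost in 3 of 8 fits without 1 mouse.

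The acetyl-CoA carboxylase genes were called at different times, and their time courses were not tested against each other. Acaca, whose product makes malonyl-CoA for synthesis, was at 98.2, 121, 135 and 149 CPM in WT PTU mice and at 63.0, 102, 56.0 and 59.1 CPM at 6 h, and 1 of the 6 h mice reached into the PTU range. It fell by 0.87 ± 0.26 on the log2 scale (adjusted p = 0.020), a call lost in 4 of 8 fits without 1 mouse. Acacb, whose product at the mitochondrial surface makes the malonyl-CoA that limits fatty acid entry, was at 249, 241, 353 and 282 CPM in WT PTU mice and at 424, 442, 469 and 497 CPM at 24 h. All the 24 h mice were higher, and the log2 fold change was 0.70 ± 0.17 (adjusted p = 0.0030), with the call kept in 8 of 8 fits without 1 mouse.

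Among the desaturases, Scd2 was at 318, 365, 315 and 624 CPM in WT PTU mice and at 83.7, 339, 126 and 133 CPM at 6 h. Scd2 fell by 1.27 ± 0.43 on the log2 scale (adjusted p = 0.038), although 1 mouse of the 6 h group overlapped the PTU group, and the call was lost in 5 of 8 fits without 1 mouse and when the BATKO mice were added to the fit, 30 mice in all (adjusted p = 0.068). Scd1 at 6 h was at 8565, 16725, 8471 and 7602 CPM against 13267, 17017, 28426 and 29144 CPM, a log2 fold change of -1.11 ± 0.40 that missed the threshold in edgeR (adjusted p = 0.051). It passed in DESeq2 (adjusted p = 0.031), in a fit of only the groups compared (adjusted p = 0.015), with a mean count above 50 (adjusted p = 0.049) and without a filter on the mean count (adjusted p = 0.0041). Fasn was not called against PTU at any of the 4 times, with log2 fold changes between -0.56 ± 0.29 at 6 h (adjusted p = 0.17) and 0.17 ± 0.29 at 3 h, but it was called at 6 h in a fit of only the groups compared (adjusted p = 0.048). Thrsp was not called up to 12 h and rose at 24 h, from 2789, 2347, 2416 and 3484 CPM to 5014, 5482, 2815 and 4393 CPM (0.68 ± 0.21, adjusted p = 0.018), with 1 of the 4 treated mice inside the PTU range and the call lost in 2 of 8 fits without 1 mouse.

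Counted together, 1 of the 10 genes was called higher and 1 lower at 3 h, where 5.08% of the 12993 genes tested were called higher and 4.04% lower. At 6 h, 0 were higher and 4 lower (12.1% and 10.9% of all genes). At 12 h, 1 was higher and 1 lower (13.6% and 12.1%), and at 24 h 3 were higher and 1 lower (17.2% and 15.5%). Their median log2 fold change went from -0.71 at 6 h to 0.43 at 24 h, while the median of all genes was between -0.02 and 0.01 at each of the 4 times. The 4 comparisons share the same PTU mice. Between successive times, edgeR called 0 of the 10 genes from 3 h to 6 h (2.79% of all genes) and 0 from 6 h to 12 h (2.96%), where 5 and 3 had an unadjusted p under 0.05 and DESeq2 called 0 and 2. From 6 h to 12 h all 10 log2 fold changes were positive, led by Scd2 at 1.57 ± 0.44 (adjusted p = 0.054) and Scd1 at 1.30 ± 0.40 (adjusted p = 0.082). From 12 h to 24 h edgeR called Me1 higher and 0 lower (5.59% and 5.80% of all genes), and DESeq2 also called Srebf1 lower (-0.66, adjusted p = 0.044), which edgeR gave an adjusted p of 0.076.

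Cell markers moved in the same mice. The summed level of 7 pan-adipocyte markers was 9898 to 11101 CPM in WT PTU mice and 4784 to 5019 CPM at 24 h, with 6 of 7 called lower, after 7 of 7 at 12 h, while the sum of 7 brown adipocyte markers was 6133 to 8133 CPM and 8519 to 16264 CPM, with 1 called higher and 4 lower. At 6 h, where 4 of the 10 genes were lower, pan-adipocyte markers summed to 8760 to 9495 CPM, with 1 of 7 called lower, and brown adipocyte markers to 11400 to 13531 CPM, with 3 called higher and 2 lower, and neither sum overlapped that of PTU mice. The brown adipocyte sum was above all PTU mice at 3 h and 12 h too, at 9137 to 14319 CPM and 9971 to 17577 CPM. The sum of 5 white adipocyte markers went from 161 to 181 CPM in PTU mice to 89.8 to 150 CPM at 3 h, 85.8 to 142 CPM at 12 h and 84.7 to 142 CPM at 24 h, where 1 was called higher and 3 lower. That of 5 endothelial markers was 341 to 348 CPM in PTU mice, 361 to 387 CPM at 3 h and 269 to 336 CPM at 12 h. Mouse B11 of the 3 h group stood apart with 1243 CPM of red blood cell markers, against 197 to 340 CPM in the other 3, and 114 CPM of macrophage markers, against 40.2 to 42.4 CPM. It held the lowest Srebf1 level of that group, and without it Srebf1 at 3 h had a value of -0.71 and was not called (adjusted p = 0.092). No marker of these lists was at 0. The part of these shifts in the values above was not tested. Skeletal muscle markers exceeded 1000 CPM in 1 mouse at 6 h and 1 at 24 h. Without both mice, Acly and Me1 at 6 h, and Mlxipl, Acacb, Thrsp and Srebf1 at 24 h, were still called, whereas Acaca (adjusted p = 0.054) and Scd2 (adjusted p = 0.11) at 6 h were not, nor was Me1 between 12 h and 24 h (adjusted p = 0.067). Mlxipl at 6 h (0.57, adjusted p = 0.040) and Srebf1 between 12 h and 24 h (-0.76, adjusted p = 0.035) became called.

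**Figure D2:**
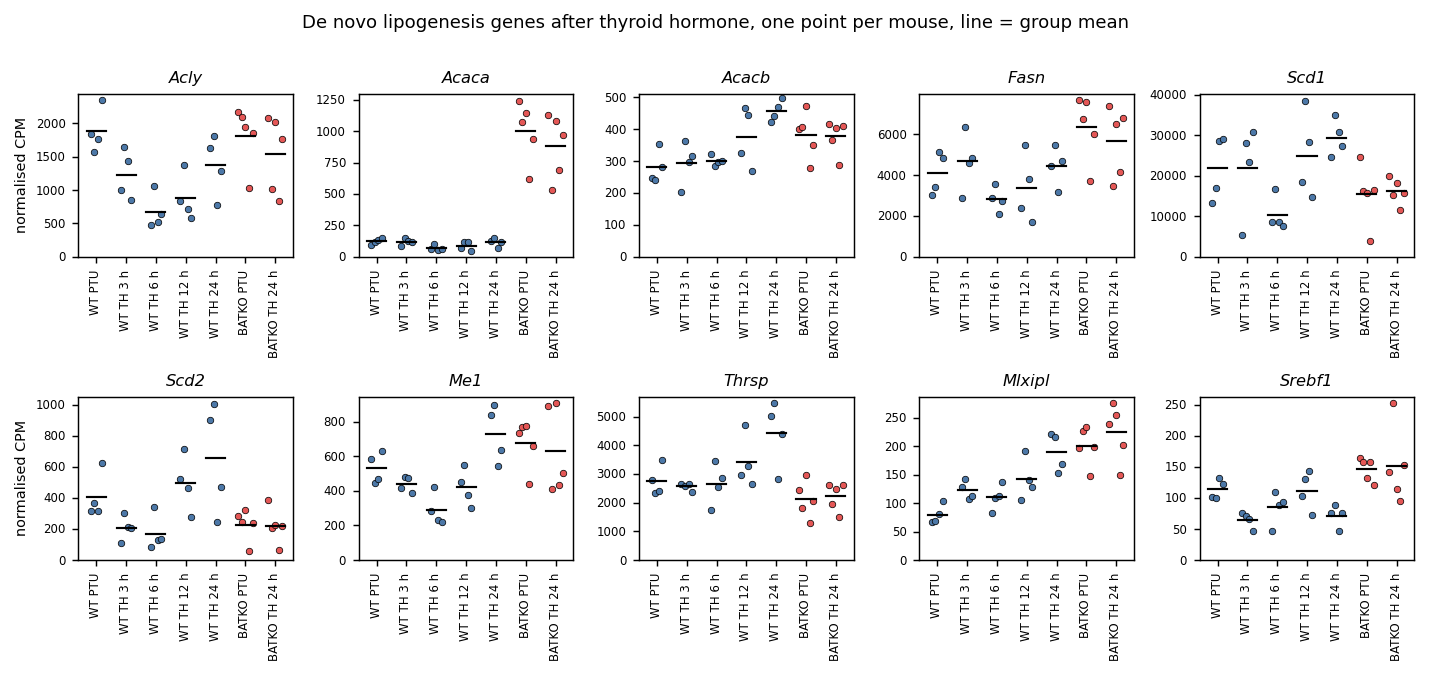
Normalised CPM of each of the 10 genes (y axes, from 0) in the 7 groups of the TH experiment (x axes), 1 point per mouse, WT in blue and BATKO in red, with group means as lines. Mlxipl climbs from a mean of 79.7 CPM in WT PTU mice to 190 CPM at 24 h, Acly dips to 678 CPM at 6 h, and Acaca in BATKO mice lies far above that in WT mice.

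In BATKO mice, none of the genes was called after 24 h of TH. The count was 0 of 10 by edgeR and by DESeq2, with 0 at an unadjusted p under 0.05, and 0% of the 14168 genes tested were called by either tool, with 677 at an unadjusted p under 0.05 by edgeR. Mlxipl was at 196, 227, 233, 148 and 199 CPM in BATKO PTU mice and at 238, 276, 255, 150 and 203 CPM after TH, with overlapping groups (0.16 ± 0.17, adjusted p = 0.97). Acacb was at 399, 408, 474, 278 and 350 CPM against 417, 367, 404, 287 and 411 CPM, also overlapping (-0.02 ± 0.15, adjusted p = 1.0).

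The difference between the genotypes in this response was tested directly. It was called for 2 of the 10 genes, both with a lower response in BATKO mice, where 7.13% of all genes had a lower and 5.13% a higher response. Mlxipl responded less in BATKO than in WT mice by 1.09 ± 0.26 on the log2 scale (interaction -1.09, adjusted p = 0.0059), and the call held in 18 of 18 fits without 1 mouse. For Acacb the interaction was -0.72 ± 0.23 (adjusted p = 0.039), but it was lost in 11 of 18 such fits and without the mice high in muscle markers (adjusted p = 0.058). Thrsp (-0.61 ± 0.31, adjusted p = 0.21) and Srebf1 (0.72 ± 0.34, adjusted p = 0.17) did not pass. Pan-adipocyte markers, which fell in WT mice, were not called in BATKO mice, where they summed to 9862 to 11194 CPM at PTU and 8324 to 13184 CPM after TH.

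At PTU, before any TH, 3 of the 10 genes were higher in BATKO than in WT mice and 0 lower, and the share called higher was no larger than that of all genes, of which 36.3% were called higher and 34.0% lower. Mlxipl in BATKO PTU mice already lay above all WT PTU mice (1.33 ± 0.19, adjusted p = 3.4e-07), and its BATKO mean of 200 ± 33.8 CPM (SD, n = 5) stood beside the 190 ± 34.4 CPM (n = 4) of WT mice 24 h after TH. Acacb was higher by 0.44 ± 0.17 (adjusted p = 0.019), a call lost in 3 of 9 fits without 1 mouse, and Fasn missed the threshold in edgeR (0.63 ± 0.29, adjusted p = 0.0502) but passed in DESeq2 (adjusted p = 0.024), with RLE size factors (adjusted p = 0.039), in a fit of only the groups compared (adjusted p = 0.022) and without a filter on the mean count (adjusted p = 0.023). Acaca showed the largest difference of any member in any comparison, with 1240, 1071, 1145, 619 and 936 CPM in BATKO PTU mice against 98.2 to 149 CPM in WT PTU mice, a log2 fold change of 2.99 ± 0.28 (adjusted p = 1.4e-10). No such difference appeared between BATKO and CTRL mice elsewhere: the Acaca value was -0.23 ± 0.31 at 4 °C (adjusted p = 0.77), -0.23 ± 0.27 at 30 °C (adjusted p = 0.78), -0.25 ± 0.26 on HFD (adjusted p = 0.90) and -0.63 ± 0.29 on chow (adjusted p = 0.63). Experiments were not tested against each other. BATKO PTU mice also had lower brown adipocyte markers than WT PTU mice, 1759 to 2633 against 6133 to 8133 CPM with 6 of 7 called lower. White adipocyte markers were lower too, at 39.0 to 65.9 against 161 to 181 CPM with 1 of 5 called higher and 3 lower, and 5 endothelial markers summed to 406 to 462 against 341 to 348 CPM, with 4 called higher and 1 lower. Libraries of BATKO mice held 13593987 to 18073627 counts and those of WT mice 7805938 to 14615534. The part of the markers or of depth in the differences was not tested.

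Most of the 10 genes were higher in the cold in both genotypes. In CTRL mice, 8 of the 10 genes were higher at 4 °C than at 30 °C and 0 lower, with a median log2 fold change of 1.37, while 26.5% of the 13257 genes tested were called higher and 22.6% lower, and the median change of all genes was -0.01. In BATKO mice 9 were higher and 0 lower (21.4% and 18.9% of all genes), with a median of 1.21. Without the mice high in muscle markers, however, 3 were called, beside 2209 of 13006 genes tested. Scd2 rose most of the 10 in both genotypes. It was at 42.0, 123, 157 and 169 CPM in CTRL mice at 30 °C and at 583, 332 and 676 CPM at 4 °C, with no overlap (2.11 ± 0.39, adjusted p = 3.1e-04). In BATKO mice it was at 120, 79.6, 132, 90.3 and 60.5 CPM at 30 °C and at 331, 673, 406 and 420 CPM at 4 °C, again with no overlap (2.25 ± 0.35, adjusted p = 1.0e-04).

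The genes for the acetyl-CoA, carboxylase and synthase steps were called higher in both genotypes. Fasn was at 1469, 3270, 3630 and 3508 CPM in CTRL mice at 30 °C and at 14848, 6336 and 6268 CPM at 4 °C (1.62 ± 0.36, adjusted p = 0.0015), and every cold mouse was above every mouse at 30 °C. In BATKO mice it went from 3096 ± 1069 (SD, n = 5) to 7597 ± 1795 CPM (n = 4), without overlap (1.30 ± 0.32, adjusted p = 0.0042). Acly rose by 1.67 ± 0.50 in CTRL mice (adjusted p = 0.011) and by 1.87 ± 0.44 in BATKO mice (adjusted p = 0.0031). Acaca rose by 1.12 ± 0.31 (adjusted p = 0.0068) and 1.12 ± 0.27 (adjusted p = 0.0039), and Acacb by 1.05 ± 0.16 (adjusted p = 4.9e-05) and 0.53 ± 0.14 (adjusted p = 0.0064). In CTRL mice the groups did not overlap for any of these 3 genes, whereas in BATKO mice they overlapped for Acly and Acaca.

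The genes for NADPH supply and Spot 14 were called higher as well. Me1 was at 59.7, 139, 176 and 149 CPM in CTRL mice at 30 °C and at 446, 295 and 485 CPM at 4 °C (1.64 ± 0.42, adjusted p = 0.0042), and it rose by 2.02 ± 0.38 in BATKO mice (adjusted p = 5.0e-04). Thrsp was at 658, 1020, 1033 and 1167 CPM against 5840, 2214 and 2993 CPM in CTRL mice (1.93 ± 0.30, adjusted p = 5.9e-05) and rose by 1.30 ± 0.26 in BATKO mice (adjusted p = 8.6e-04). For Me1 and Thrsp the cold mice were all higher in both genotypes.

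Scd1 was called in BATKO mice and not in CTRL mice. In CTRL mice it was at 11359, 19388, 22442 and 24174 CPM at 30 °C and at 8998, 13830 and 16941 CPM at 4 °C, overlapping groups with a log2 fold change of -0.54 ± 0.32 (adjusted p = 0.17). In BATKO mice it went from 14031 ± 5311 (SD, n = 5) to 24568 ± 4277 CPM (n = 4), by 0.81 ± 0.28 (adjusted p = 0.028), a call lost in 6 of 9 fits without 1 mouse. The 4 cold BATKO mice, at 28172, 26014, 18366 and 25721 CPM, were all above the 3 cold CTRL mice, yet neither the genotype difference at 4 °C (0.89 ± 0.32, adjusted p = 0.17) nor the interaction (1.35 ± 0.42, adjusted p = 0.10) passed in edgeR, and DESeq2 called the interaction (adjusted p = 0.024). Scd1 and Scd2 are paralogs, so reads could be shared between them.

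Each of the transcription factor genes passed the test in 1 genotype. Mlxipl was at 121, 142, 135 and 141 CPM in CTRL mice at 30 °C and at 445, 146 and 190 CPM at 4 °C (0.95 ± 0.30, adjusted p = 0.014). The cold mice were all higher, but without the mouse at 445 CPM, CTRL mouse 1, the value was 0.28 and the call was lost (adjusted p = 0.34). The same mouse was highest of its group for Fasn, Thrsp and Acly, and without it Acly was not called either (1.22, adjusted p = 0.079) and the Fasn value was 1.05, still called (adjusted p = 0.023). In BATKO mice Mlxipl was not called (0.16 ± 0.26, adjusted p = 0.66), and the interaction was -0.79 ± 0.40 (adjusted p = 0.30). Srebf1 had a log2 fold change of 0.74 ± 0.33 in CTRL mice (adjusted p = 0.071) and rose by 0.89 ± 0.29 in BATKO mice (adjusted p = 0.020), a call lost without mouse 12 or without mouse 8 of the cold group.

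Markers of several cell types moved with temperature. Pan-adipocyte markers summed to 5775 to 6963 CPM at 30 °C and 10816 to 11835 CPM at 4 °C in CTRL mice, with 3 of 7 called higher and 1 lower, and to 6108 to 7028 CPM and 10774 to 13421 CPM in BATKO mice. Brown adipocyte markers went from 561 to 2206 CPM up to 15359 to 18998 CPM in CTRL mice, with 5 of 7 called higher and 1 lower, and 4 red blood cell markers from 175 to 328 CPM up to 756 to 1688 CPM. In BATKO mice brown adipocyte markers went from 1061 to 2084 CPM up to 8431 to 15849 CPM, with 5 of 7 called higher, and red blood cell markers from 178 to 488 CPM up to 761 to 1096 CPM. Other sums were lower in the cold in CTRL mice without overlap: fibroblast markers went from 361 to 503 CPM to 264 to 280 CPM, with 2 of 4 called lower, macrophage markers from 65.4 to 110 CPM to 52.5 to 62.4 CPM, with 1 of 6 called lower, and T and B cell markers from 1.46 to 2.48 CPM to 0.246 to 0.903 CPM. In BATKO mice these 3 sums overlapped between temperatures. No marker of these lists was at 0, and their part in the result was not tested. Without the 6 mice with over 1000 CPM of muscle markers, which left 3 CTRL against 2 and 2 BATKO against 3, 8 genes were called in CTRL mice, beside 4733 of the 13006 genes tested. Srebf1 was gained (1.17, adjusted p = 0.037) and Mlxipl lost (1.00, adjusted p = 0.072). In BATKO mice 3 were called, namely Acaca, Scd2 and Me1, beside 2209 of the 13006 genes tested. The Fasn value in BATKO mice was 0.82 (adjusted p = 0.23) and that of Acacb 0.25 (adjusted p = 0.39).

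**Figure D3:**
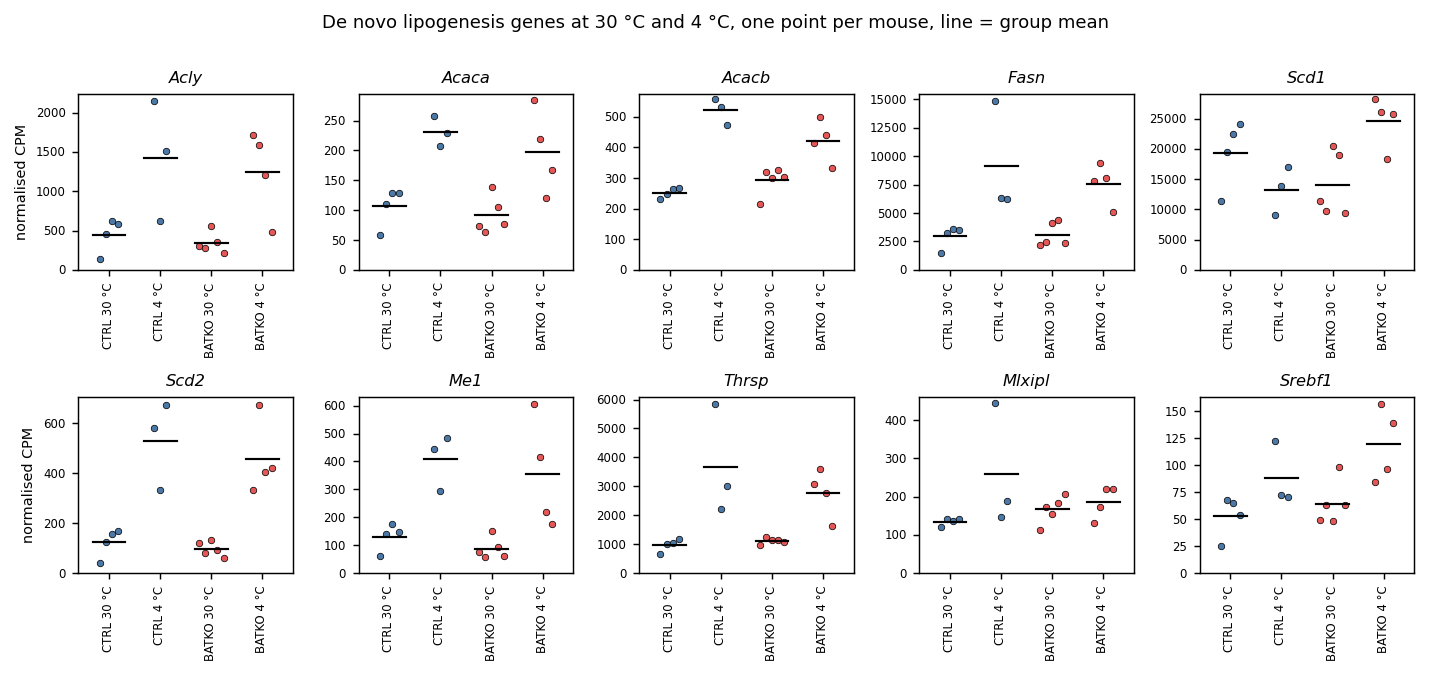
Normalised CPM of each of the 10 genes (y axes, from 0) at 30 °C and 4 °C (x axes), 1 point per mouse, CTRL in blue and BATKO in red, with group means as lines. Scd2, Fasn, Me1, Thrsp and Acacb are higher in every cold mouse of both genotypes, Scd1 overlaps between temperatures in both, and 1 CTRL mouse at 4 °C stands out at 445 CPM for Mlxipl.

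HFD lowered Acly, Fasn, Me1, Acaca and Thrsp in CTRL mice. The count was 5 of 10 lower on HFD than on chow and 0 higher, where 2.04% of the 12922 genes tested were called lower and 1.89% higher. Acly fell most, from 465, 603, 479 and 296 CPM on chow to 185, 156, 119 and 120 CPM on HFD (-1.67 ± 0.22, adjusted p = 0.0012). Fasn fell from 2204, 2578, 2525 and 1457 CPM to 1019, 897, 502 and 689 CPM (-1.50 ± 0.25, adjusted p = 0.0059). Every HFD mouse was below every chow mouse for both genes.

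Me1 was at 107, 93.8, 140 and 79.4 CPM on chow and at 59.7, 67.2, 38.3 and 42.5 CPM on HFD (-1.02 ± 0.19, adjusted p = 0.011). Acaca was at 56.9, 54.8, 48.4 and 31.2 CPM against 28.1, 30.3, 14.7 and 17.3 CPM (-1.08 ± 0.24, adjusted p = 0.024), and Thrsp at 1814, 1563, 1662 and 1315 CPM against 1019, 1157, 873 and 1256 CPM (-0.56 ± 0.14, adjusted p = 0.038). The mice did not overlap for any of the 3, but leaving out a mouse ended the call of Acaca in 4 of 8 fits and that of Thrsp in 6 of 8, and Thrsp was not called in a fit of only the groups compared (adjusted p = 0.058).

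The other 5 genes were not called by edgeR. Scd1 was at 8532, 17017, 16742 and 11765 CPM on chow and at 24101, 26709, 16530 and 22842 CPM on HFD, a log2 fold change of 0.74 ± 0.22 that missed the threshold in edgeR (adjusted p = 0.080) and passed it in DESeq2 (adjusted p = 0.018). Acacb (-0.18 ± 0.16), Scd2 (-0.20 ± 0.24), Mlxipl (-0.15 ± 0.14) and Srebf1 (-0.26 ± 0.19) were not called, with adjusted p-values of 0.46 or more.

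In BATKO mice, with 3 on HFD and 2 on chow, edgeR called 0 of the 10 genes on HFD and 0.0696% of all genes, while 6 of the 10 had an unadjusted p under 0.05 and DESeq2 called 2, Acly and Fasn. Acly was at 368 and 227 CPM on chow and at 133, 130 and 102 CPM on HFD (-1.29 ± 0.27, adjusted p = 0.083). Fasn was at 2289 and 1196 CPM on chow and at 557, 583 and 806 CPM on HFD (-1.43 ± 0.31, adjusted p = 0.083). The mice were also all lower on HFD for Acaca, Me1 and Thrsp and all higher for Scd1 and Srebf1. Groups of 3 and 2 mice often separate by chance, and the share of all genes that did so was not counted. The interaction between diet and genotype was called for 0 of the 10 genes and 0% of all genes by edgeR, and for 0 genes of the table by DESeq2, with 1 of the 10 at an unadjusted p under 0.05. Without the filter on the mean count, edgeR called it for 216 genes of the table and still for 0 of the 10.

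Muscle markers ran from 0.848 to 1994 CPM in CTRL mice on chow and from 0.763 to 503 CPM on HFD, and their part was not tested beyond leaving out the mice above 1000 CPM. Without those mice Acly, Fasn, Me1 and Acaca were still called lower in CTRL mice and Thrsp was not (adjusted p = 0.053). Pan-adipocyte markers overlapped, at 7357 to 8172 CPM on chow and 7816 to 8746 CPM on HFD in CTRL mice, with 1 of 7 called higher. The sums of brown and white adipocyte, endothelial and red blood cell markers overlapped as well, whereas those of 3 other lists did not overlap in CTRL mice. The sum of 6 macrophage markers was 62.7 to 75.0 CPM on chow and 92.2 to 237 CPM on HFD, with 0 of 6 called by edgeR and all 6 at an unadjusted p under 0.05, and that of 4 fibroblast markers was 370 to 591 CPM and 600 to 849 CPM, with 1 called higher. The T and B cell sum was 0.935 to 2.00 CPM on chow and 0.112 to 0.516 CPM on HFD, and its genes were too low to be tested. In BATKO mice 4 sums did not overlap between diets. Brown adipocyte markers were at 2237 to 3332 CPM on chow and 3954 to 5698 CPM on HFD, and red blood cell markers at 450 to 483 CPM and 578 to 1184 CPM. Macrophage markers, at 157 to 193 CPM on chow and 68.6 to 142 CPM on HFD, and fibroblast markers, at 819 to 829 CPM and 657 to 794 CPM, were lower on HFD, the other way from CTRL mice. The part of these markers in the diet results was not tested.

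**Figure D4:**
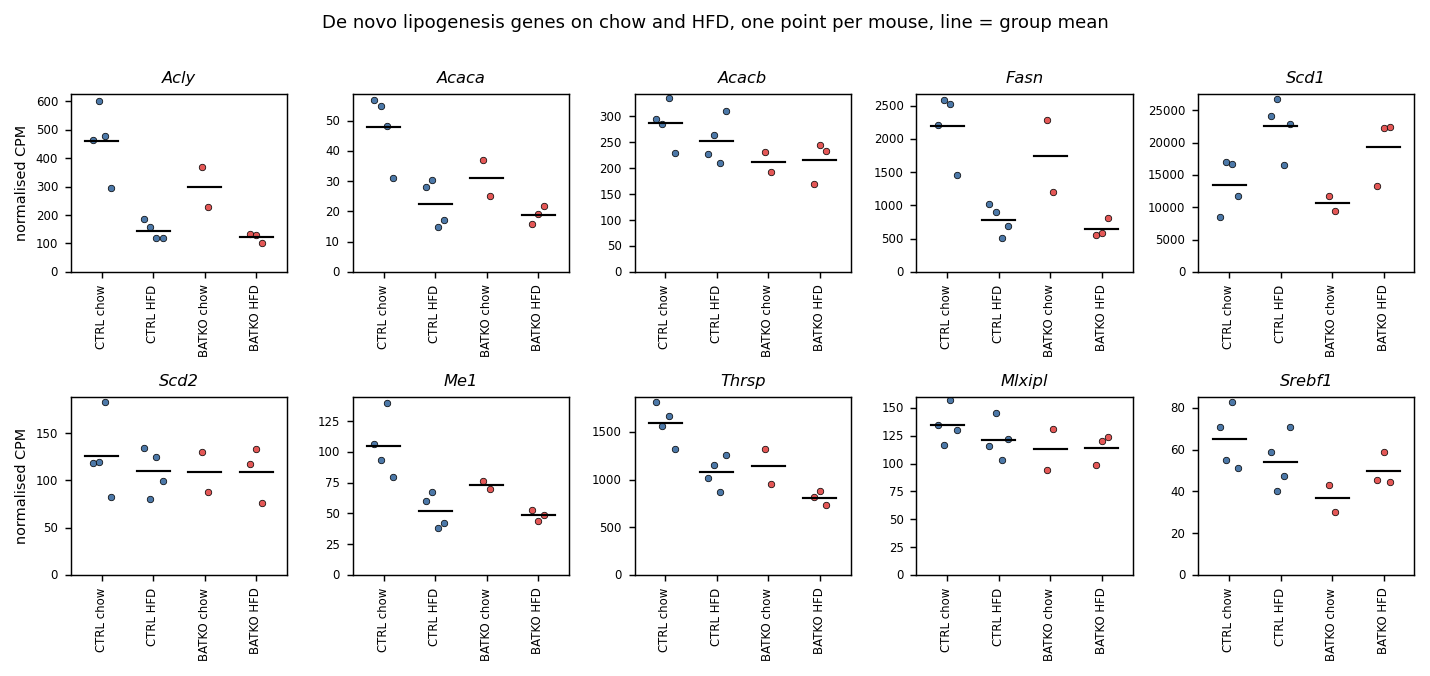
Normalised CPM of each of the 10 genes (y axes, from 0) on chow and HFD (x axes), 1 point per mouse, CTRL in blue and BATKO in red, with group means as lines. Acly, Acaca, Fasn, Me1 and Thrsp are lower in every HFD mouse of both genotypes, and Scd1 is at 22546 CPM on average on HFD against 13514 CPM on chow in CTRL mice.

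Outside the TH experiment, edgeR with the filter on low counts called no difference between BATKO and CTRL mice among the 10 genes. EdgeR and DESeq2 each called 0 of the 10 at 4 °C (2.16% of all genes by edgeR, 1 of the 10 at an unadjusted p under 0.05), 0 at 30 °C (0.00754%, 0 of the 10), 0 on HFD (0%, 1 of the 10) and 0 on chow (0%, 6 of the 10). On chow all 10 log2 fold changes were negative, between -0.83 ± 0.25 for Srebf1 (adjusted p = 0.36, or 0.0071 without the filter, where it was called) and -0.21 ± 0.30 for Scd2 (adjusted p = 0.91). Srebf1 and Me1 were lower in both BATKO mice than in all 4 CTRL mice on chow. Groups this small often separate by chance, and the share of all genes that did so was not counted. In the same mice macrophage markers summed to 157 to 193 CPM in BATKO against 62.7 to 75.0 CPM in CTRL mice, fibroblast markers to 819 to 829 against 370 to 591 CPM and pan-adipocyte markers to 8291 to 9001 against 7357 to 8172 CPM, without overlap, and their part in these values was not tested. For the cold interaction, edgeR called 0 of the 10 (1.12% of all genes, 2 of the 10 at an unadjusted p under 0.05) and DESeq2 called 1, Scd1.

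**Figure D5:**
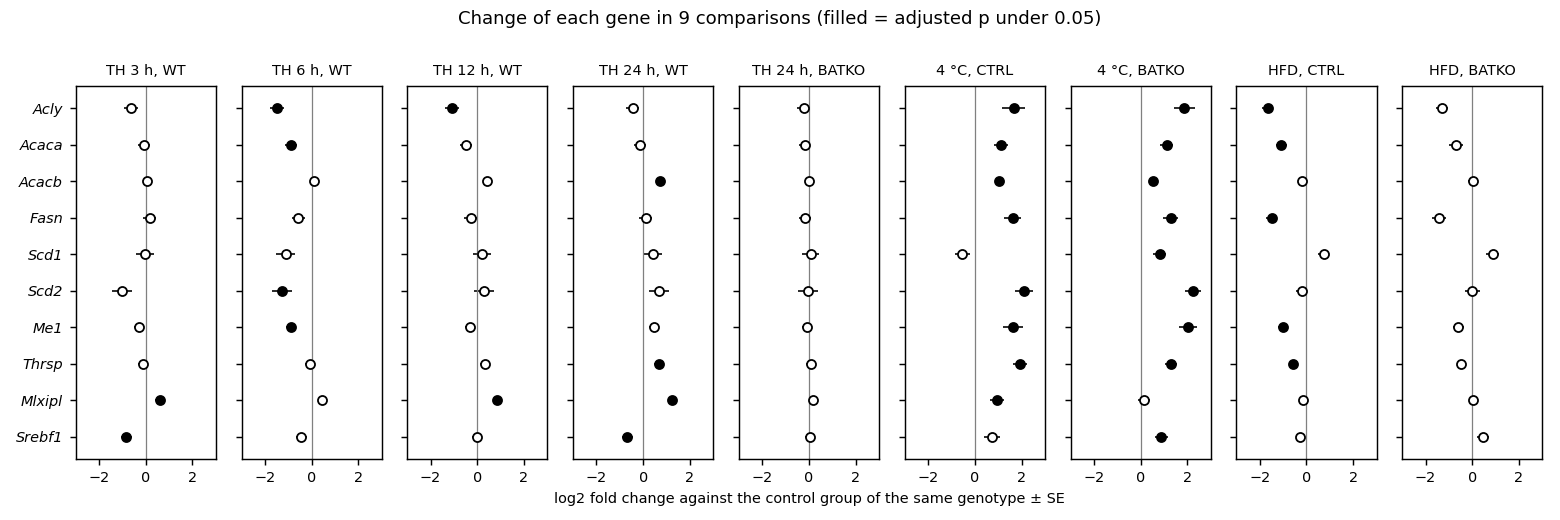
Log2 fold change of each of the 10 genes (rows) with its SE in 9 comparisons (panels), against PTU, 30 °C or chow of the same genotype. Filled points passed an adjusted p of 0.05: 4 at 6 h after TH in WT mice, 0 at 24 h in BATKO mice, 8 and 9 in the cold, and 5 on HFD in CTRL mice.

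The pathway around the 10 genes was read from 6 lists with 46 genes in all, covering substrate supply, elongation and desaturation, regulators of the carboxylases, SREBP processing, transcription partners and glucose-responsive targets. In WT mice, 2 of the 44 tested were higher and 3 lower after 3 h of TH, where 5.08% of all genes were higher and 4.04% lower. The counts were 5 higher and 7 lower after 6 h (12.1% and 10.9% of all genes), 9 higher and 6 lower after 12 h (13.6% and 12.1%), then 14 higher and 6 lower after 24 h (17.2% and 15.5%). Of these, the counts of higher genes at 3 h and 6 h and of lower genes at 12 h and 24 h were near the share of all genes. In BATKO mice 0 of 45 were called at 24 h. Insig1, which retains SREBP in the endoplasmic reticulum, went from 106 to 187 CPM in WT PTU mice down to 45.4 to 69.4 CPM at 3 h (-1.35 ± 0.22, adjusted p = 4.7e-04), was not called at 12 h (-0.50 ± 0.22, adjusted p = 0.098) and was at 41.3 to 84.5 CPM at 24 h (-1.31 ± 0.22, adjusted p = 1.2e-04). Its response differed in BATKO mice (interaction 1.32 ± 0.38, adjusted p = 0.020). Prkab1, a subunit of the AMP-activated kinase that inhibits the carboxylases, rose by 1.19 ± 0.21 at 24 h in WT mice (adjusted p = 1.7e-04), with a smaller response in BATKO mice (interaction -1.01 ± 0.31, adjusted p = 0.030). Fads2, a desaturase of polyunsaturated fatty acids, rose by 1.15 ± 0.24 (adjusted p = 8.6e-04), also with a smaller response in BATKO mice (interaction -1.21 ± 0.31, adjusted p = 0.0093), and the elongase Elovl3 fell by 2.25 ± 0.48 (adjusted p = 0.0011). The elongase Elovl6 rose by 1.05 ± 0.16 at 12 h (adjusted p = 5.0e-05), while Pgd, which makes NADPH in the pentose phosphate pathway, fell by 0.72 ± 0.19 (adjusted p = 0.0073). Txnip, a glucose-responsive gene, fell by 1.61 ± 0.26 at 6 h (adjusted p = 1.7e-04) and by 1.02 ± 0.26 at 12 h (adjusted p = 0.0058).

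In the cold, 22 of the 43 pathway genes tested were higher and 4 lower in CTRL mice (26.5% and 22.6% of all genes), and 18 were higher and 5 lower in BATKO mice (21.4% and 18.9%). Elovl3 went from 0.0799 to 2.24 CPM in CTRL mice at 30 °C to 912 to 1188 CPM at 4 °C, and no fold is given since some mice at 30 °C held only a few counts. Mlycd, encoding the decarboxylase that removes malonyl-CoA, went from 12.8 to 14.6 CPM up to 95.8 to 138 CPM in CTRL mice (3.15 ± 0.16, adjusted p = 3.2e-09) and its cold response was smaller in BATKO mice (interaction -1.32 ± 0.21, adjusted p = 0.016). Pgd rose by 2.24 ± 0.27 in BATKO mice (adjusted p = 9.9e-06). Fads1, another desaturase, fell by 1.19 ± 0.16 in CTRL mice (adjusted p = 2.1e-05) and by 1.05 ± 0.14 in BATKO mice (adjusted p = 3.0e-05).

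On HFD, 1 of the 43 pathway genes tested was higher and 4 were lower in CTRL mice, where 1.89% of all genes were higher and 2.04% lower. Elovl6, which extends palmitate, fell by 0.91 ± 0.13 on the log2 scale (adjusted p = 0.0023) and Slc25a1, the mitochondrial citrate carrier, by 0.61 ± 0.16 (adjusted p = 0.047). Mlycd rose by 0.68 ± 0.18 (adjusted p = 0.047).

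Across the 59 mice, the level of Acly followed that of Fasn more closely than any of the other 12264 genes ranked, with Pearson's r of 0.89 between their log2 CPM, each taken as the deviation from the mean of its experiment. Me1 came next at 0.82. Acaca (0.68, rank 16), Acacb (0.67, rank 21) and Thrsp (0.62, rank 41) were also near the top, whereas Scd1 stood at 0.20 and rank 2751. By experiment, r between Fasn and Thrsp was 0.08 in the TH experiment, 0.94 in the temperature experiment and 0.83 in the diet experiment, and that between Fasn and Scd1 was 0.45, 0.31 and -0.45. Taken within groups, r between Fasn and Scd1 was 0.78, 0.40 and 0.61 in the same order. Outside the 10 genes, those near the top of the ranking included Pdha1 (0.80), a subunit of pyruvate dehydrogenase, the fructose transporter gene Slc2a5 (0.79), Gm47451 (0.75) and Aacs (0.75), which activates acetoacetate for lipid synthesis. Within the groups of each experiment, the median r over all pairs of the 10 genes was 0.65 in the TH experiment (30 mice), 0.49 at 4 °C and 30 °C (16 mice) and 0.35 in the diet experiment (13 mice). These r values are descriptions, since the mice share treatments and normalisation.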

How the data were processed

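BAT RNA from 59 male mice had been sequenced after Trizol extraction with a total RNA library kit. The authors deposited whole-number counts per gene, without normalization, in 1 table per experiment. The submitters' processing notes name mm10, Bowtie2 (version 2.3.2.2) and DESeq2, and the paper's methods describe a run on reads from repositories with removal of low-quality alignments and counting with htseqcount. The gene annotation and the strand setting are not given in the sources used here, so reads of a gene and an overlapping antisense gene cannot be separated. Columns were matched to mice by the labels, and 0 were left unmatched.

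Of 55341 symbols per table, 14 had been turned into dates (0.0278%, 0.0333% and 0.0469% of the counts in the TH, temperature and diet tables) and were left out of library sizes and tests. Counts were tested with edgeR (version 4.0.16, R version 4.3.3): TMM scaling, a quasi-likelihood test of the genes whose normalized count averaged above 10, Benjamini-Hochberg adjustment over all genes tested, threshold 0.05. WT mice of the TH experiment were fitted together (20 mice), as were all 30 for comparisons with BATKO mice, the 16 temperature mice and the 13 diet mice. Levels are TMM-normalized CPM, computed per table. No library was a copy of another of its group: chi-square divided by its degrees of freedom was at least 7.47 over 91 pairs. The labels give no litter or batch. The fits were checked on simulated counts.

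Alternatives were DESeq2 (version 1.42.0), RLE size factors, no filter, a mean above 50, no mitochondrially encoded genes, fits of all 30 TH mice or of only the groups compared, and each mouse left out. Leaving out mice with over 1000 CPM of muscle markers was chosen after seeing the data. The 10 genes and all lists were chosen with earlier results of these data known. By rule, the text names the 10 genes, from the lists per comparison the 2 called genes changed most each way, and the 5 genes most correlated with Fasn (log2 CPM, prior count 2), of which 1 is not reported here. A few further pathway values of those same genes were added after they were seen. Promoter windows came from RefSeq (GRCm38.p6), gene lengths from GENCODE.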

Additional observations from a re-analysis of the deposited data

Results flagged for a closer look

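Of 120 sets of values, each of 1 of the 10 genes in a group of 4 or 5 mice, 6 held a mouse whose gap to the nearest other exceeded Dixon's 95% limit as a share of the group's range, and chance alone would give about 6. The shares were 0.847 for Acaca (102 CPM, others 56.0 to 63.0) and 0.894 for Scd1 (16725 CPM, others 7602 to 8565) in WT mouse B13 at 6 h of TH, and 0.838 for Scd2 in WT PTU mouse B5 (624 CPM, others 315 to 365). They were 0.722 for Acly in BATKO PTU mouse 11 (1024 CPM, others 1851 to 2169), 0.833 for Fasn in CTRL mouse 19 at 30 °C (1469 CPM, others 3270 to 3630) and 0.760 for Acacb in BATKO mouse 13 at 30 °C (215 CPM, others 300.2 to 327).

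The response to 24 h of TH differed between BATKO and WT mice by the interaction test for Mlxipl (-1.09 on the log2 scale, adjusted p = 0.0059, edgeR) and for Acacb (-0.72, adjusted p = 0.039). Mlxipl was higher at 24 h than in every PTU mouse in 4 of 4 WT mice, whereas the BATKO groups overlapped. Genotype and handling of the libraries cannot be told apart here.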

How the results depend on the processing

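No paired analysis was possible because the mouse numbers in the labels name different mice in the groups compared. Over the 20 comparisons, no call of the 10 genes changed direction under any alternative. Values that were not called changed sign in 101 of 1800 values when a mouse was left out, by at most 0.32 after the change, and in 18 of 1450 under the other alternatives, by at most 0.53.

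The number of the 10 genes called moved by over 1.5 times as follows. Without mitochondrially encoded genes it was 1 at 3 h against PTU. Without a filter on the mean count it was 5 at 6 h against 3 h, 2 at 12 h against 6 h, 2 at 24 h against 12 h, 5 for BATKO against WT at PTU, 3 for HFD in BATKO mice and 1 for BATKO against CTRL on chow. With DESeq2 it was 2 at 12 h against 6 h, 2 at 24 h against 12 h, 1 for the cold interaction and 2 for HFD in BATKO mice. With a fit of only the groups compared it was 5 for BATKO against WT at PTU and 1 for HFD in BATKO mice. Without mice high in muscle markers it was 1 for the interaction at 24 h and 3 for cold in BATKO mice. Fewer mice entered these last fits, and the other causes were not tested.

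Leaving out each mouse gave 0 to 1 genes called at 3 h, 2 to 5 at 6 h, 0 to 3 at 6 h against 3 h, 0 to 3 at 12 h against 6 h, 0 to 2 at 24 h against 12 h, 1 to 2 for the interaction at 24 h and 3 to 5 for HFD in CTRL mice. Every other comparison stayed within 1.5 times its count. Calls among all genes moved as well when each mouse was left out. They were 683 to 1308 at 3 h, 103 to 408 at 6 h against 3 h, 111 to 380 at 12 h against 6 h and 887 to 1697 at 24 h against 12 h. They were 53 to 565 for BATKO against CTRL at 4 °C, 5 to 891 for the cold interaction, and 166 to 713 and 0 to 9 for HFD in CTRL and BATKO mice. Among all genes, calls by edgeR and DESeq2 were 384 and 621 at 12 h against 6 h, 286 and 638 for BATKO against CTRL at 4 °C, 149 and 680 for the cold interaction, 508 and 871 for HFD in CTRL mice and 9 and 267 in BATKO mice. Calls by DESeq2 where edgeR made 0 were 12 for BATKO against CTRL on HFD and 31 on chow, and at 30 °C they were 8 against 1. Without a filter edgeR called 637 genes in place of 363 at 6 h against 3 h, 606 at 12 h against 6 h, 1280 and 336 for HFD in CTRL and BATKO mice, 59 and 290 in place of 0 for BATKO against CTRL on HFD and chow, and 216 in place of 0 for the diet interaction. A fit of only the groups compared gave 788 in place of 1479 at 24 h against 12 h, 61 for BATKO against CTRL at 4 °C, 320 and 66 for HFD in CTRL and BATKO mice, and 114 for BATKO against CTRL on chow, and a fit with BATKO mice added gave 187 at 6 h against 3 h. Without mice high in muscle markers, cold in BATKO mice gave 2209 calls in place of 5335, the cold interaction 6, BATKO against CTRL 97 at 4 °C and 0 at 30 °C, HFD in BATKO mice 4, and the successive TH times 192, 101 and 966. Small groups, 2 BATKO mice on chow and 3 CTRL mice at 4 °C, limit the precision, and the smallest count of any of the 10 genes was 112.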

Other observations

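The 2 most changed pathway genes in each direction between BATKO and WT mice at PTU were not described above. Usf2, a transcription factor that binds E-boxes, was higher in BATKO PTU mice by 2.28 ± 0.15 on the log2 scale (adjusted p = 2.4e-14, edgeR), and Prkaa1, a catalytic subunit of the AMP-activated kinase, was lower (-1.98 ± 0.10, adjusted p = 2.0e-16). Scd3, another desaturase gene of the Scd family, was at 0.230 to 0.528 CPM in WT PTU mice and at 0.971 to 10.9 CPM in BATKO PTU mice. Elovl3 was at 241 to 624 CPM in WT PTU mice and at 9.36 to 73.0 CPM in BATKO PTU mice. In the temperature experiment the difference between BATKO and CTRL mice at 30 °C was 0.58 ± 0.24 for Usf2 (adjusted p = 0.54) and -0.29 ± 0.12 for Prkaa1 (adjusted p = 0.54). The experiments were not tested against each other.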
